A study of Mus musculus with 18 samples.

Results

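The 39 genes described here make up the signalling chain below a G protein-coupled receptor: G protein subunits, phospholipase C-beta (PLC-beta), adenylyl cyclases, protein kinase A (PKA), protein kinase C (PKC), the cAMP sensors called Epac, arrestins, and the muscarinic receptor gene Chrm3. They were chosen by name, as 39 of the 22078 Entrez genes in the deposited tables, and 39 of 39 were found in both tables. The cells were cultured mouse cortical astrocytes, transfected with a plasmid for a designer receptor (DREADD, a muscarinic receptor altered so that it answers a synthetic ligand) or for a fluorescent protein. The question was which of these isoforms the cells express and whether stimulating a receptor changes them.

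At 90 min the groups were hM3Dq, which couples to Gq, rM3Ds, which couples to Gs, hM4Di, which couples to Gi, and the control protein EGFP. A second table held hM3Dq and the control protein mCherry at 3 days. Each of the 6 groups had 3 libraries. Cells of every group, controls included, were given the ligand deschloroclozapine (DCZ, 8 µM) 7 days after transfection and kept in it for 90 min. For the later time the medium was then exchanged for fresh medium. No group carried a receptor without ligand. The plasmids were delivered with a lipid reagent, so a library can mix cells with and without the receptor, and the promoter of the plasmids, the mouse strain and age are not given in the sources used here.

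A heterotrimeric G protein has an alpha subunit, which sets the pathway, and a beta-gamma pair. Alpha subunits of the Gs class switch adenylyl cyclase on, those of the Gi/o class restrain it, those of the Gq/11 class activate PLC-beta, and those of the G12/13 class activate exchange factors for the small GTPase RhoA. The cAMP that adenylyl cyclase makes is read by PKA and Epac, the diacylglycerol and calcium that follow PLC-beta activate PKC, and arrestins switch receptors off. In astrocytes, Gq signalling is best known for releasing calcium from internal stores.

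Libraries held 16067367 to 25222365 counts. In them 3 counts, about the upper 95% limit for a count of 0, correspond to 0.119 to 0.187 CPM (counts scaled to 1000000 per library). Fos and Nr4a1, immediate-early genes that many stimuli switch on, rose with hM3Dq at 90 min (log2 fold change 2.01 ± 0.16, SE, and 2.00 ± 0.15, edgeR adjusted p = 6.2e-05 and 6.1e-05). Fos had 18.5 to 21.3 CPM with rM3Ds and 13.3 to 16.9 CPM with hM4Di, against 10.0 to 15.3 CPM with EGFP. In both genes the rM3Ds libraries lay above EGFP but far below hM3Dq, and the hM4Di libraries overlapped EGFP. Whether rM3Ds and hM4Di signalled in these cells was not tested, which limits what their comparisons below can show. The label was checked against marker lists. The 10 astrocyte markers were detected, with a summed level of 498 to 1041 CPM, but Gfap had 1.68 to 23.2 CPM, while the 7 markers of fibroblasts and mural cells summed to 1773 to 3204 CPM at 90 min and 2363 to 3075 CPM at 3 days. The summed level of the fibroblast and mural markers, among them the collagen gene Col1a1 with 652 to 1916 CPM, was thus above that of the astrocyte markers, and its part in the results was not tested. The neuronal list summed to 97.3 to 174 CPM, nearly all of it from Map2 (94.7 to 172 CPM), while Rbfox3 reached at most 0.713 CPM. The oligodendrocyte lineage list summed to 10.3 to 29.8 CPM. In it Mbp had 1.37 to 14.0 CPM and Pdgfra 1.98 to 8.52 CPM, while Mog had at most 0.277 CPM. The microglial list summed to 2.17 to 9.55 CPM, most of it from Tmem119 (1.45 to 9.22 CPM), with P2ry12 at 0 in 16 of 18 libraries. The endothelial list reached at most 1.39 CPM. In bulk libraries, fewer cells of a type and less RNA per cell cannot be told apart. EGFP 1, rM3Ds 2 and rM3Ds 3 were separated from the remaining libraries at 90 min by the first principal component, which held 52.5% of the variance. Their scores were 53.3 to 65.5, that of hM4Di 1 lay between with 8.63, and the other 8 libraries had -25.5 to -17.5. The 5 proliferation markers summed to 178 and 194 CPM in rM3Ds 2 and 3 and to 306 CPM in EGFP 1, against 30.5 to 101 CPM in the other libraries at 90 min. Cell type markers moved with them too, but in both directions within a list. The astrocyte markers summed to 498 CPM in EGFP 1 but were not low in rM3Ds 2 and 3. The glial gene S100b had 94.5 and 87.1 CPM in rM3Ds 2 and 3, against 1.84 to 8.32 CPM in the others at 90 min. The astrocyte marker Aldoc was instead lower in rM3Ds 2, rM3Ds 3 and EGFP 1 than in the others. The collagen gene Col1a2 had 94.4 and 106 CPM in rM3Ds 2 and 3 and 220 CPM in EGFP 1, against 391 to 628 CPM in the others. Pdgfrb, of the same list, was higher, with 465 and 527 CPM in rM3Ds 2 and 3 and 484 CPM in EGFP 1, against 289 to 378 CPM. Dcn was also higher in these libraries. Fits without all 3 libraries leave rM3Ds 1 alone in its group and assume that it varies like the other groups. At 3 days mCherry 3 stood apart, with proliferation markers at 60.1 CPM, against 23.9 to 42.8 CPM in the other libraries at that time. Nothing in the labels says that libraries of a group came from separate cultures, so the p-values rest on a spread that may be technical.

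Nearly the whole chain was expressed. Of the 39 members, 31 had more than 10 CPM (normalised, not per length) in each of the 18 libraries and 3 stayed below 1 CPM in each, the cyclases Adcy4 and Adcy7 and the Epac gene Rapgef4. Adcy4 and Rapgef4 did not pass the filter on low counts, so 37 members were tested at each time. Adcy4 had 0 to 0.236 CPM and Rapgef4 0 to 0.757 CPM, near the floor of detection.

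**Figure D1:**
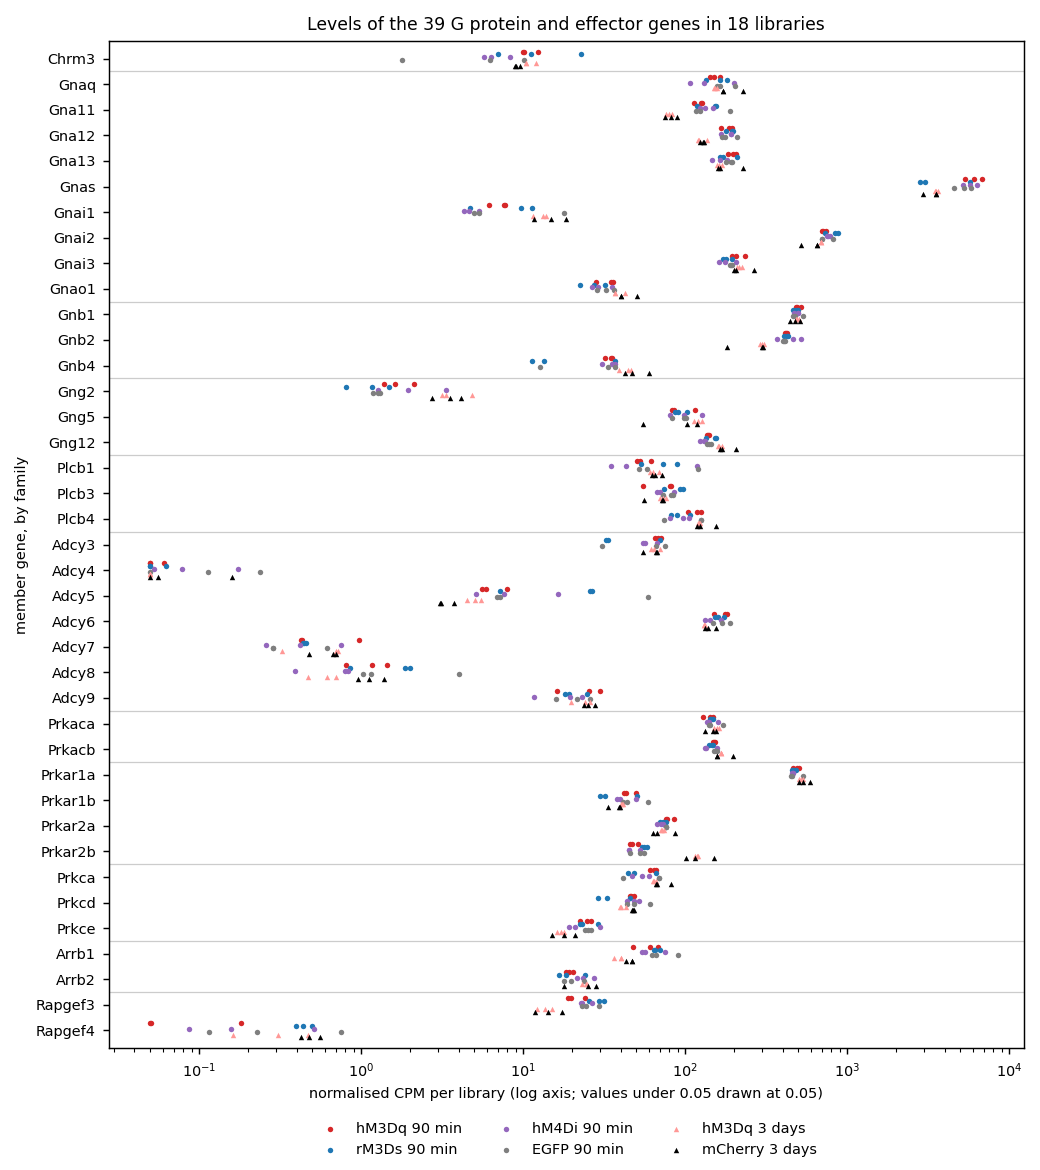
Normalised CPM (log axis, not per length) of the 39 members in each of the 18 libraries; circles are libraries at 90 min and triangles at 3 days, coloured by group, and grey lines separate families. Gnas lies between 2838 and 6848 CPM, above every other member, and the points of a gene mostly overlap between groups.

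Among alpha subunits the transcript of the Gs class prevailed. To compare genes, CPM was divided by transcript length, and each gene is given as its percent of the summed level of its family. Gnas (Entrez 14683), which encodes the stimulatory subunit, took 69.3% ± 6.31 (SD, n = 18 libraries; lowest 56.0%, highest 77.5%) of the G alpha level and came first in 18 of 18 libraries. Gnai2, an inhibitory subunit, took 19.2% ± 4.15. The other members with a share above 1% were Gnai3 with 2.95%, Gna13 with 2.41%, Gna12 with 2.25%, Gna11 with 1.59% and Gnaq with 1.39%. The ranges of these 5 over the libraries overlap. Gnao1 took 0.477% and Gnai1 0.156%. The Gnas locus makes several transcripts from different first exons. Which of them the deposited value sums is not given, so its share is not that of 1 known transcript. With the longest coding sequence of each gene as the divisor, called coding length here, Gnas took 46.9% and still came first. That divisor is not a like measure for Gnas, whose longest coding sequence, of a long form of the locus, is 3.399 kb, above its median transcript of 2.992 kb.

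By class, the Gs class took 75.5% ± 2.15 of the G alpha level with hM3Dq, 62.8% ± 10.4 with rM3Ds, 74.1% ± 2.31 with hM4Di and 72.0% ± 4.19 with EGFP (SD, n = 3 each). The wide spread with rM3Ds came from rM3Ds 2 and 3, and the remaining library, rM3Ds 1, had 74.8%. At 3 days the Gs class took 66.1% ± 0.358 with hM3Dq and 65.7% ± 1.73 with mCherry. The Gq/11 class, through which hM3Dq signals, took 2.40% ± 0.352 with hM3Dq, 3.87% ± 1.34 with rM3Ds, 2.63% ± 0.662 with hM4Di and 3.25% ± 1.05 with EGFP. By coding length it took 7.83% with hM3Dq, 10.7% with rM3Ds, 8.33% with hM4Di and 9.89% with EGFP, so the size of the Gq/11 share depends on the divisor. The Gi/o class took 18.05% ± 1.29 with hM3Dq, 27.7% ± 7.51 with rM3Ds, 19.4% ± 1.17 with hM4Di and 20.3% ± 2.72 with EGFP. Without the 3 libraries that stand apart, the Gq/11 class took 2.33% in rM3Ds 1 and 2.64% with EGFP, and the Gi/o class 19.0% in rM3Ds 1 and 18.7% with EGFP. Each receptor group overlaps EGFP in each class at 90 min. At 3 days the Gq/11 class took 2.86% ± 0.0072 with hM3Dq and 3.48% ± 0.527 with mCherry, and the Gi/o class 26.4% ± 0.493 with hM3Dq and 25.5% ± 0.174 with mCherry. The libraries did not overlap in either of these classes, but they did in the Gs class and in the remaining class. Beside this, the libraries did not overlap in 25.1% of all genes tested at 3 days. With no division by length the Gi/o class took 19.2% ± 0.460 with hM3Dq and 18.7% ± 0.455 with mCherry. By coding length it took 37.5% ± 0.724 and 35.8% ± 0.307, so the size of this difference depends on the divisor. No test was made on these shares.

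**Figure D2:**
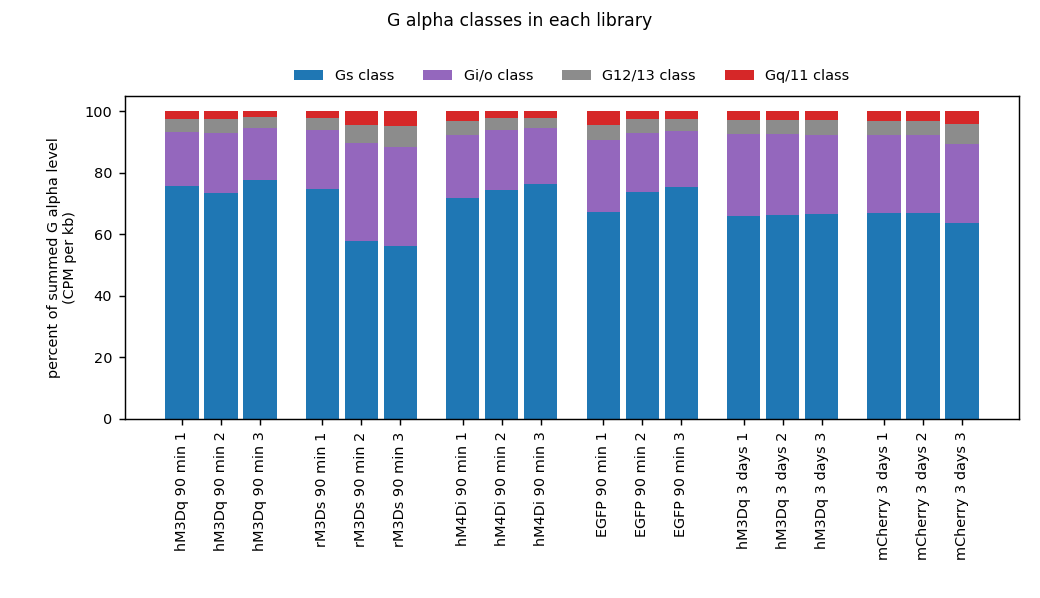
Percent of the summed G alpha level (CPM per kb) in each class, 1 bar per library, receptor groups left of their control. The Gs class makes up most of every bar; it is lowest in rM3Ds 2 and 3, whereas rM3Ds 1 has 74.8%.

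Gnas had 6052, 5333 and 6848 CPM in the hM3Dq libraries, 5718, 3024 and 2838 CPM in the rM3Ds libraries, 5164, 5714 and 6378 CPM in the hM4Di libraries and 4589, 5301 and 5782 CPM in the EGFP libraries. It had 3480, 3527 and 3616 CPM with hM3Dq and 3542, 3522 and 2931 CPM with mCherry at 3 days. The low values at 90 min were those of rM3Ds 2 and 3, and each receptor group overlaps EGFP.

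The beta-gamma pair was made of a few common isoforms. Gnb2 took 55.4% ± 6.48 of the G beta level per length and Gnb1 34.7% ± 4.71, and Gnb2 came first in 17 of 18 libraries. That order depends on the length used, since Gnb1 took 54.1% by coding length. Gnb4 took 3.17%. Gnb2 had 421, 415 and 427 CPM with hM3Dq, 427, 434 and 409 CPM with rM3Ds, 372, 465 and 521 CPM with hM4Di and 416, 410 and 404 CPM with EGFP. At 3 days it had 289, 298 and 308 CPM with hM3Dq, against 302, 300 and 180 CPM with mCherry, where the low value is mCherry 3. Among gamma subunits Gng5 took 43.8% ± 4.96 and Gng12 34.7% ± 5.16 of the level per length. Gng5 came first in 17 of 18 libraries, but Gng12 came first by coding length. With the longest transcript as the divisor, Gng10, which is not a member, came first with 30.0%. The order thus again depends on the length. Gng5 had 84.9, 82.9 and 115 CPM with hM3Dq, 89.9, 102 and 86.7 CPM with rM3Ds, 80.6, 127 and 98.6 CPM with hM4Di and 99.2, 83.4 and 102 CPM with EGFP. At 3 days its values were 121, 127 and 114 CPM with hM3Dq and 102, 119 and 55.3 CPM with mCherry. The groups overlap at both times. Gng2, with 0.809 to 4.83 CPM, was the scarcest gamma member.

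Of the phospholipases that Gq activates, Plcb4 took 47.9% ± 7.32, Plcb3 34.1% ± 4.72 and Plcb1 17.97% ± 5.08 of the level per length. Plcb4 came first in 15 of 18 libraries and Plcb3 in the other 3, and Plcb2, the remaining gene of the family, took 0.0151%. Plcb4 had 118, 126 and 104 CPM with hM3Dq, 108, 82.3 and 89.7 CPM with rM3Ds, 106, 96.6 and 81.2 CPM with hM4Di and 73.7, 125 and 125 CPM with EGFP. At 3 days it had 124, 120 and 121 CPM with hM3Dq and 124, 118 and 155 CPM with mCherry.

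Adcy6, a cyclase that calcium inhibits, took 61.0% ± 2.62 of the adenylyl cyclase level per length and came first in 18 of 18 libraries. Adcy3 followed with 24.9% ± 6.03 and Adcy9 with 9.53% ± 1.95. Adcy5, the closest relative of Adcy6, took 3.06% ± 3.36, an SD larger than the mean, and 1.76% without the 3 libraries that stand apart. Adcy8, a cyclase that calcium stimulates, took 0.327% and Adcy7 0.172%. Adcy6 had 175, 182 and 150 CPM with hM3Dq, 159, 154 and 175 CPM with rM3Ds, 168, 133 and 142 CPM with hM4Di and 190, 170 and 149 CPM with EGFP. The 3-day values were 131, 131 and 133 CPM with hM3Dq and 155, 140 and 132 CPM with mCherry.

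PKA is built of catalytic subunits held silent by regulatory subunits until cAMP binds. Prkaca took 67.6% ± 2.77 of the catalytic level per length and Prkacb 32.4%. By coding length Prkaca took 52.0% and Prkacb 48.0%, and with no division by length Prkacb came first with 51.2%, so the lead of Prkaca depends on the length. Prkaca had 149, 142 and 130 CPM with hM3Dq, 143, 149 and 145 CPM with rM3Ds, 137, 142 and 161 CPM with hM4Di and 171, 142 and 141 CPM with EGFP. The 3-day values were 158, 151 and 162 CPM with hM3Dq and 150, 156 and 132 CPM with mCherry. Prkar1a took 69.9% ± 2.13 of the regulatory level per length, ahead of Prkar2a with 11.6%, Prkar2b with 10.9% and Prkar1b with 7.63%. Per transcript length, Prkaca and Prkar1a each came first in 18 of 18 libraries. Prkar1a varied little: it had 489, 464 and 502 CPM with hM3Dq, 481, 466 and 458 CPM with rM3Ds, 461, 458 and 462 CPM with hM4Di and 538, 453 and 456 CPM with EGFP. At 3 days it had 522, 533 and 507 CPM with hM3Dq and 505, 533 and 589 CPM with mCherry.

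The cAMP response element TGACGTCA, the letters bound by the factor CREB that PKA activates, was searched on both strands in the promoter windows of RefSeq (GRCm38.p6), which run from 250 bases before to 50 bases after a gene's start. Windows were found for 32 of 39 members. The element was in 1 of the 32, Prkar1a (3.13%), beside 2.03% of 27025 genes. Its shorter form TGACG, whose matches contain those of the full element, was in 12 of 32 members (37.5%), beside 23.0% of all genes, and the AP-1 letters TGANTCA in 4 of 32 (12.5%), beside 8.97%. A gene was counted if any of its windows held the letters, and the 27025 genes had 32851 windows. Genes differ in their number of windows, which was not adjusted for, so these percentages are not like for like. The Prkar1a promoter is shown with those of Fos and Nr4a1, since Fos and Nr4a1 rose with hM3Dq, whereas Prkar1a was not called. Capitals mark the full element in Prkar1a, which begins 49 bases before the start, and TGACG or its reverse complement CGTCA in Fos and Nr4a1, which hold the short form at 2 and 4 places. The short form was not marked in Prkar1a, whose sequence also holds TGACG, in lower case, outside the full element. All are the 250 bases before a start, 5′ to 3′ on the + strand: Prkar1a at chr11:109650699-109650948, the window of its 6 that holds the element, Fos at chr12:85473640-85473889 and Nr4a1 at chr15:101266596-101266845.
Prkar1a: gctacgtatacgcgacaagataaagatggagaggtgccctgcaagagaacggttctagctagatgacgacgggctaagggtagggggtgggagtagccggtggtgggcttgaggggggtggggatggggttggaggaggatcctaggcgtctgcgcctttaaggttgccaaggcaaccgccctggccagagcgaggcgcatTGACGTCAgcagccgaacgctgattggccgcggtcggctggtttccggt
Fos: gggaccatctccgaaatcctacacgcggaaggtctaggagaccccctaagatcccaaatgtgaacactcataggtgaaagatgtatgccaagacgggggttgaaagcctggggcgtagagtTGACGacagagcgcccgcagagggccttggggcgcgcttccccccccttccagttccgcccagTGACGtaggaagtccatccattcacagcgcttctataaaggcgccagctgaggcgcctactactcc
Nr4a1: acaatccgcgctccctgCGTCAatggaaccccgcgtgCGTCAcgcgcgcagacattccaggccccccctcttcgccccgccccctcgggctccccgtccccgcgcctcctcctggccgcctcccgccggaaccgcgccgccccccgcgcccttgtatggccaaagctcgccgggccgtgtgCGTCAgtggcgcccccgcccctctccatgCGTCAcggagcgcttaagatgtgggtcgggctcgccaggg
A match of letters is a description of the window and does not show that a factor binds there.

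Epac was represented by Rapgef3, which took 98.5% ± 1.11 of the level of its family per length. Rapgef3 had 19.8, 24.3 and 18.8 CPM with hM3Dq, 25.5, 31.4 and 29.5 CPM with rM3Ds, 23.0, 22.7 and 26.7 CPM with hM4Di and 29.3, 24.6 and 23.1 CPM with EGFP. The rM3Ds libraries lay above the hM3Dq libraries without overlap, and both overlapped EGFP. The share of all genes without overlap was not taken for this pair. The highest values were those of rM3Ds 2, rM3Ds 3 and EGFP 1, the libraries that stand apart, against 18.8 to 26.7 CPM in the others at 90 min. In rM3Ds 1 the value was 25.5 CPM, near the highest hM3Dq value of 24.3 CPM. At 3 days Rapgef3 had 13.6, 12.2 and 15.02 CPM with hM3Dq and 17.4, 14.2 and 11.8 CPM with mCherry.

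Of the PKC genes, the calcium-independent Prkcd took 27.5% ± 3.04 of the level per length, the calcium-dependent Prkca 15.5% ± 2.10 and Prkce 6.38% ± 1.33. The first gene of the family in 18 of 18 libraries was none of these members but Prkci, an atypical form that neither calcium nor diacylglycerol activates, with 46.8% ± 2.26. By coding length Prkcd took 13.7% and Prkca 19.2%, so the order of these members depends on the length, while Prkci still led with 58.0%. Prkcd had 46.7, 48.3 and 45.8 CPM with hM3Dq, 45.8, 32.9 and 29.2 CPM with rM3Ds, 44.0, 51.8 and 48.4 CPM with hM4Di and 61.2, 48.7 and 44.1 CPM with EGFP. Between arrestins, Arrb2 took 61.2% ± 8.20 per transcript length, but Arrb1 took 71.6% by coding length, so neither can be called the main form. Arrb2 had 19.2, 20.3 and 18.5 CPM with hM3Dq, 24.2, 18.5 and 16.7 CPM with rM3Ds, 21.6, 23.4 and 27.6 CPM with hM4Di and 18.02, 23.9 and 19.7 CPM with EGFP. At 3 days Arrb2 had 24.6, 24.998 and 23.2 CPM with hM3Dq and 28.4, 25.2 and 17.9 CPM with mCherry. Its groups overlap at both times.

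The mouse receptor gene Chrm3, whose product couples to Gq, was low. It had 12.4, 9.98 and 10.2 CPM with hM3Dq, 22.7, 11.1 and 6.97 CPM with rM3Ds, 5.74, 6.36 and 8.28 CPM with hM4Di and 1.797, 6.29 and 10.1 CPM with EGFP. At 3 days it had 11.99, 10.4 and 10.5 CPM with hM3Dq, against 9.59, 8.93 and 9.08 CPM with mCherry. The hM3Dq and rM3Ds plasmids encode altered receptors derived from the human and the rat M3 receptor. How many of their reads were counted under the mouse gene was not tested, so Chrm3 does not check the labels.

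With hM3Dq at 90 min, none of the 37 tested members was called at an adjusted p below 0.05 by edgeR's quasi-likelihood test, beside 0.788% of all 13584 genes tested, and none by DESeq2, beside 1.71%. Without adjustment, 1 member had p below 0.05, Adcy5, beside 7.94% of all genes. For the chain that Gq uses, log2 fold changes against EGFP were -0.20 ± 0.20 (SE) for Gnaq, -0.24 ± 0.17 for Gna11, -0.13 ± 0.16 for Plcb3, 0.10 ± 0.19 for Plcb4, -0.48 ± 0.45 for Plcb1, 0.09 ± 0.20 for Prkca and -0.13 ± 0.16 for Prkcd. EGFP 1 held 121 CPM of Plcb1, against 57.8 and 51.6 CPM in EGFP 2 and 3, and without it Plcb1 gave 0.0041, Gnaq -0.084 and Gna11 0.0091, while Plcb4 and Prkca turned to -0.11 and -0.12. The 95% interval lay within a 2-fold change in either direction for 28 of 37 members (75.7%), beside 78.4% of all genes. For the other 9, among them Plcb1, Adcy3, Gnb4 and Chrm3, the interval reached past a 2-fold change. Without EGFP 1 the interval lay within 2-fold for 31 of 37 members (83.8%), beside 79.4% of all genes. The median log2 fold change was -0.015 over the members and -0.0034 over all genes. Libraries of hM3Dq and EGFP did not overlap in 2 members, Gnai3 and Gng2, beside 14.8% of all genes.

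Adcy5 (Entrez 224129) had the smallest p with hM3Dq. It had 5.58, 7.99 and 5.90 CPM with hM3Dq, compared with 59.3, 6.92 and 7.26 CPM in EGFP libraries, and 25.9 and 26.6 CPM in rM3Ds 2 and 3. The high values were those of the libraries that stand apart. Its log2 fold change was -1.92 ± 0.84 (adjusted p = 0.615) and -0.13 without EGFP 1. Rapgef3 followed with -0.29 ± 0.13 (adjusted p = 0.628) and Arrb1 with -0.31 ± 0.18 (adjusted p = 0.744). Arrb1 had 60.7, 68.2 and 48.0 CPM with hM3Dq, against 90.8, 66.0 and 62.2 CPM with EGFP; without EGFP 1 its log2 fold change was -0.12 and that of Rapgef3 -0.19.

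With rM3Ds, which signals through Gs, none of 37 members was called by edgeR, beside 0.0147% of all genes, and none by DESeq2, beside 0.405%. One unadjusted p lay below 0.05, that of Prkcd, beside 4.23% of all genes. For the chain that Gs uses, the log2 fold change against EGFP was -0.44 ± 0.24 for Gnas, -0.06 ± 0.12 for Adcy6, -0.05 ± 0.10 for Prkaca, -0.09 ± 0.08 for Prkacb, -0.04 ± 0.09 for Prkar1a and 0.16 ± 0.13 for Rapgef3. The cyclases with wider errors gave -0.33 ± 0.34 (Adcy3), -0.30 ± 0.80 (Adcy5) and -0.40 ± 0.55 (Adcy8), with intervals past a 2-fold change. Without EGFP 1, Adcy5 turned to 1.499 and Adcy8 to 0.53, and Adcy3 gave -0.62. The 95% interval lay within 2-fold for 29 of 37 members (78.4%), beside 79.5% of all genes. The median log2 fold change was -0.056 over the members and -0.016 over all genes, and the libraries did not overlap in 1 member, Prkacb, beside 7.52% of all genes. Prkcd gave -0.51 ± 0.16 (adjusted p = 0.859), Chrm3 1.17 ± 0.54 (adjusted p = 1.00, as for Gnas).

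The values of Gnas and Prkcd with rM3Ds rest on which libraries are used. Without rM3Ds 1, leaving rM3Ds 2 and 3, Prkcd was called (log2 fold change -0.71, adjusted p = 0.0436), while 115 of all genes were called in place of 2. Without EGFP 1 alone, Prkcd gave -0.36 and Gnas -0.51. With rM3Ds 1 as the 1 library of its group, set against EGFP 2 and 3, Prkcd gave -0.025 and Gnas 0.039. The proliferation and cell type markers given above moved with the same libraries, and their part in these values was not tested. Chrm3 gave 1.46 in rM3Ds 1 against EGFP 2 and 3, 0.60 without rM3Ds 1 and 0.74 without EGFP 1.

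With hM4Di, which signals through Gi, none of 37 members was called by edgeR, beside 0.0% of all genes (0 of 13584), and none by DESeq2, beside 0.206%. At an unadjusted p below 0.05 there was 1 member, Adcy8, beside 5.48% of all genes. The Gi/o subunits gave log2 fold changes of 0.07 ± 0.10 for Gnai2, -0.08 ± 0.10 for Gnai3 and -0.11 ± 0.16 for Gnao1, and the beta subunits 0.14 ± 0.11 for Gnb2 and -0.01 ± 0.09 for Gnb1. The 95% interval lay within 2-fold for 29 of 37 members (78.4%), beside 80.0% of all genes. The median log2 fold change was -0.11 over the members and -0.0092 over all genes. The libraries did not overlap in 3 members, Adcy8, Gng12 and Prkar2a, beside 8.52% of all genes.

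Adcy8 had 0.831, 0.390 and 0.791 CPM with hM4Di, against 4.02, 1.03 and 1.15 CPM with EGFP. Every hM4Di library was below every EGFP library, and the highest value was EGFP 1. Its log2 fold change was -1.63 ± 0.57 (adjusted p = 0.833) and -0.68 without EGFP 1. Gng2 had 3.36, 1.95 and 1.27 CPM with hM4Di and 1.18, 1.32 and 1.27 CPM in EGFP libraries, a log2 fold change of 0.81 ± 0.37 (adjusted p = 0.833) and 0.34 without hM4Di 1, the library with the highest value. Gnai1 had 5.34, 4.63 and 4.32 CPM with hM4Di and 17.9, 5.32 and 4.96 CPM with EGFP, giving -0.98 ± 0.47 (adjusted p = 0.833) and -0.092 without EGFP 1.

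**Figure D3:**
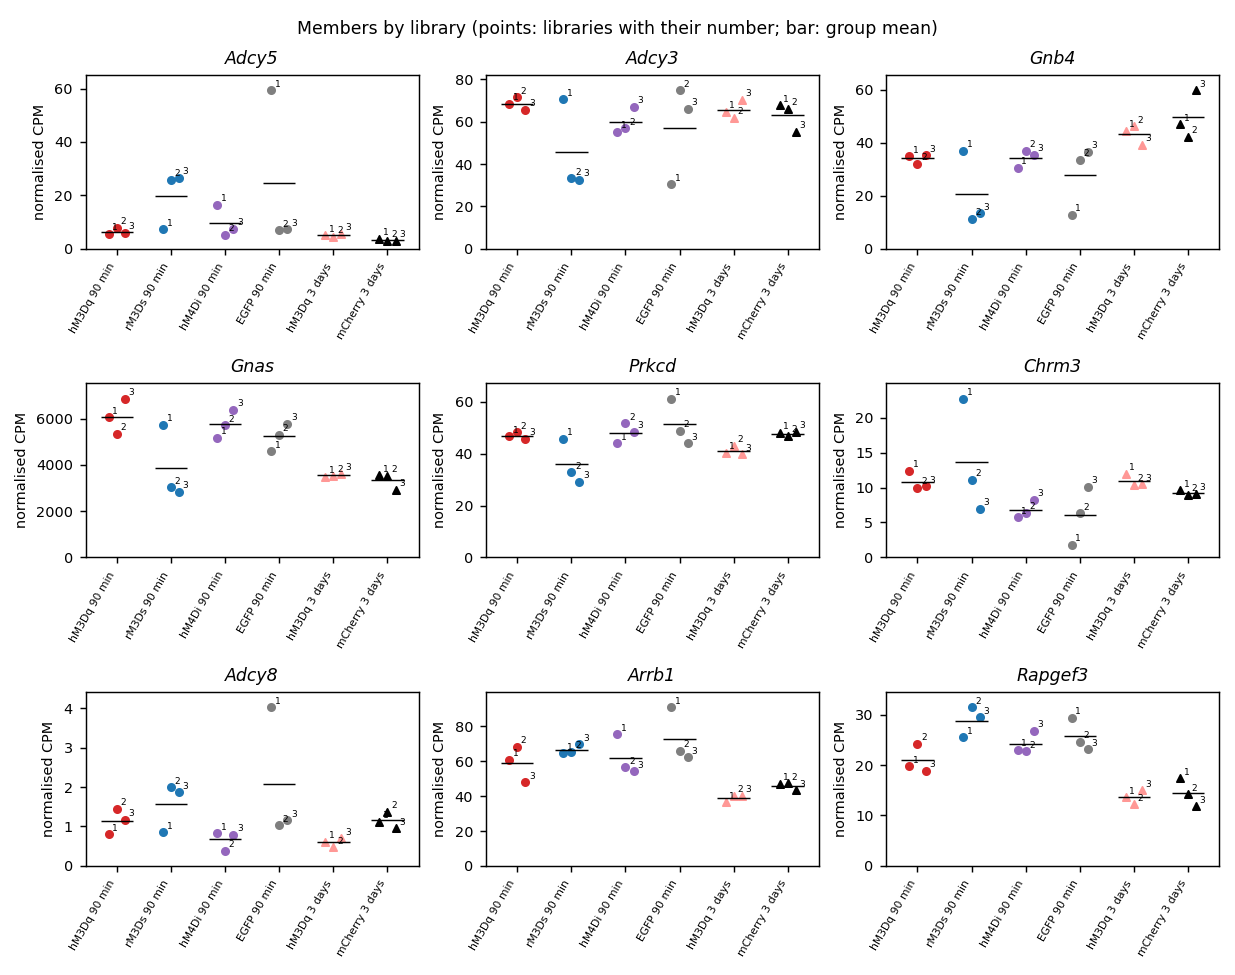
Normalised CPM of 9 members by group; points are libraries with their number, bars are group means, and the axes start at 0. EGFP 1, rM3Ds 2 and rM3Ds 3 sit apart from the rest of their groups in Adcy5, Adcy3 and Gnb4, and rM3Ds 2 and 3 in Gnas and Prkcd.

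In several members the libraries that stand apart held the extreme values. Gnb4 had 11.3 and 13.4 CPM in rM3Ds 2 and 3 and 12.8 CPM in EGFP 1, against 30.6 to 37.0 CPM in the other libraries at 90 min. Adcy3 had 33.3 and 32.6 CPM in rM3Ds 2 and 3 and 30.5 CPM in EGFP 1, against 55.2 to 74.7 CPM in the others. Plcb1 was high in EGFP 1 with 121 CPM and also in hM4Di 1 with 119 CPM, against 35.0 to 88.7 CPM in the others. Across the 12 libraries at 90 min the SD of log2 CPM had a median of 0.219 over the 37 members and 0.202 over all genes tested. It was above 1 in 1 member, Adcy5.

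Set against each other, the receptors gave no called member either. Between hM3Dq and rM3Ds none of 37 members was called by edgeR, beside 0.67% of all genes, and none by DESeq2, beside 3.41%. At an unadjusted p below 0.05 there were 4 members, beside 14.2% of all genes: Rapgef3 (log2 fold change -0.46 ± 0.13, adjusted p = 0.175), Gnas (0.65 ± 0.24, adjusted p = 0.270), Prkcd (0.38 ± 0.16, adjusted p = 0.326) and Prkar2b (-0.22 ± 0.10, adjusted p = 0.344). Among the libraries at 90 min, Rapgef3 was highest in rM3Ds 2, rM3Ds 3 and EGFP 1. Without rM3Ds 1, Gnas (1.04, adjusted p = 0.00935) and Prkcd (0.59, adjusted p = 0.0403) were called, as were 590 of all genes in place of 91; with rM3Ds 1 alone in its group they gave 0.083 and 0.030. Between hM3Dq and hM4Di none was called by edgeR, beside 0.802%, and none by DESeq2, beside 3.12%, with 2 members, Prkar2a and Gna13, at an unadjusted p below 0.05, beside 11.4%. Between rM3Ds and hM4Di none was called by edgeR, beside 0.0147%, and none by DESeq2, beside 1.51%, with 5 members at an unadjusted p below 0.05, beside 9.97%. Those were Gng12, Prkcd, Gng2, Prkar2b and Gnas, and without rM3Ds 1 Gnas (-0.98, adjusted p = 0.0158) and Prkcd (-0.63, adjusted p = 0.0395) were called, as were 392 of all genes (2.83%) in place of 2. The joint edgeR test of the 3 receptors against EGFP called no member, beside 0.913% of all genes, with 2 at an unadjusted p below 0.05 (Rapgef3 and Prkcd), beside 11.2%. DESeq2 called none, beside 4.83%. Without rM3Ds 1 the joint test called Gnas (adjusted p = 0.0253), as it did 410 of all genes (2.96%). Without the 3 libraries, with rM3Ds 1, the highest in Chrm3, alone in its group, it called Chrm3 (adjusted p = 0.0449), as it did 159 of all genes (1.14%). These comparisons share libraries and are not independent.

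At 3 days after hM3Dq stimulation, none of 37 members was called by edgeR, beside 0.0% of all genes (0 of 12807), and none by DESeq2, beside 1.22%. Unadjusted, p was below 0.05 in 5 members, Adcy5, Adcy8, Arrb1, Prkcd and Gnaq, beside 12% of all genes. Estimates were tighter than at 90 min: the 95% interval lay within 2-fold for 36 of 37 members (97.3%), beside 89.2% of all genes, the exception being Adcy8. The libraries did not overlap in 9 of 37 members, beside 25.1% of all genes. The median log2 fold change was -0.056 over the members and -0.0070 over all genes.

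At this time Adcy5 had 5.07, 4.52 and 5.53 CPM with hM3Dq, against 3.75, 3.12 and 3.08 CPM with mCherry, higher in each hM3Dq library (log2 fold change 0.60 ± 0.16, adjusted p = 0.263). Adcy8 had 0.615, 0.469 and 0.705 CPM with hM3Dq, against 1.125, 1.38 and 0.953 CPM with mCherry, lower in each hM3Dq library (-0.93 ± 0.29, adjusted p = 0.298). Arrb1, which encodes a protein that uncouples receptors from G proteins, had 36.5, 40.1 and 40.1 CPM with hM3Dq, against 47.0, 47.3 and 43.3 CPM with mCherry (-0.24 ± 0.09, adjusted p = 0.369). Without mCherry 3, Arrb1 was called (-0.28, adjusted p = 0.0183), while 1257 of all genes were called in place of 0. Prkcd had 40.4, 43.0 and 39.8 CPM with hM3Dq, against 48.0, 47.0 and 48.4 CPM with mCherry (-0.22 ± 0.08, adjusted p = 0.373), and Gnaq gave -0.31 ± 0.12 (adjusted p = 0.398), or -0.16 without mCherry 3. The test of whether the hM3Dq effect differed between 3 days and 90 min called no member by edgeR, beside 0.396% of all genes, and none by DESeq2, beside 1.51%. At an unadjusted p below 0.05 there was 1 member, Adcy5 (2.53 ± 0.98, adjusted p = 0.451), beside 9.73% of all genes. Time and control protein cannot be told apart in that test.

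**Figure D4:**
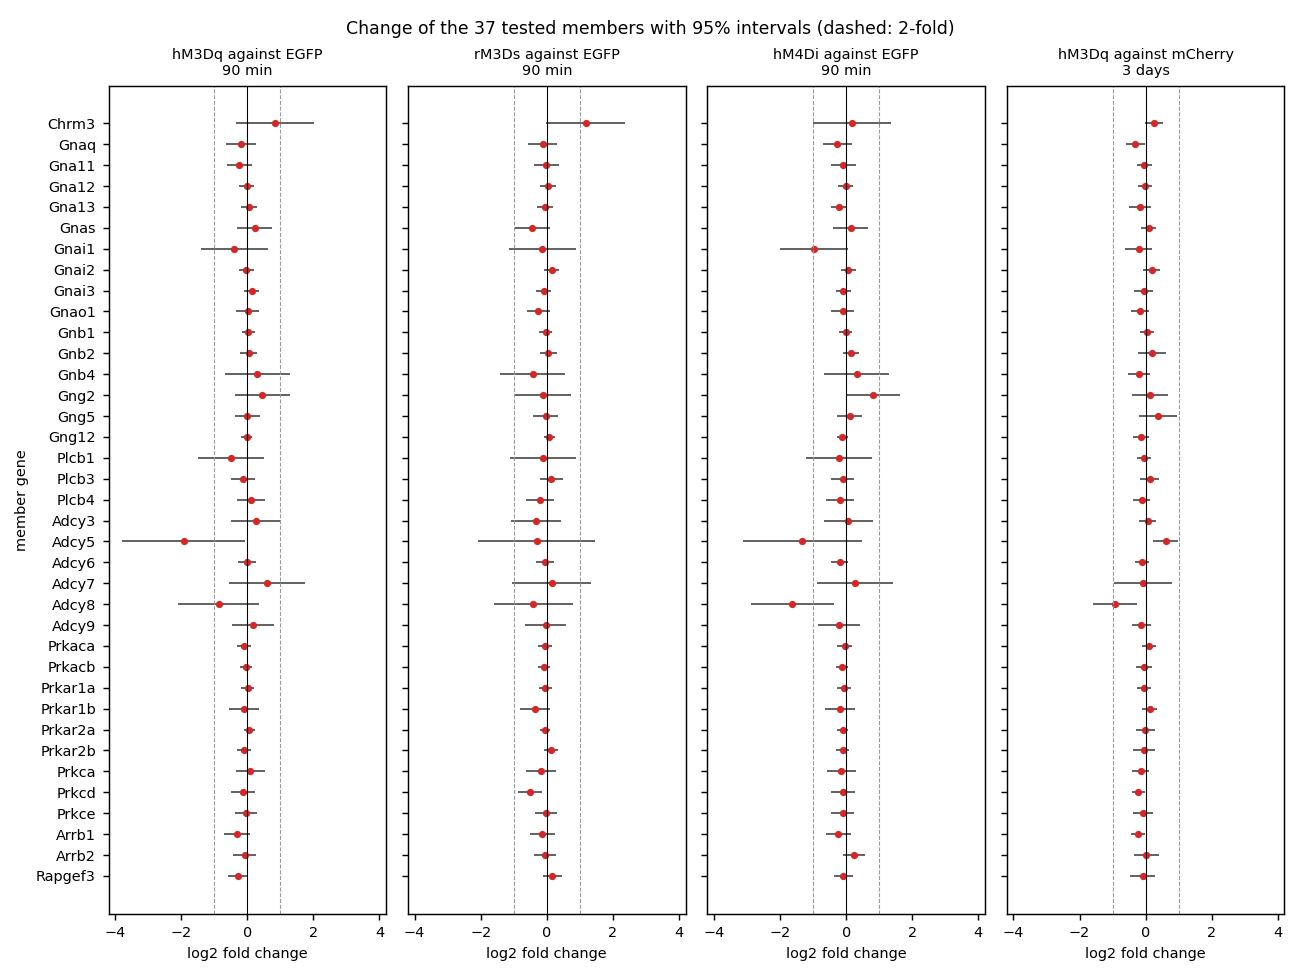
Log2 fold change (points) and 95% interval (lines) of the 37 tested members in the 4 comparisons with a control; dashed lines mark a 2-fold change. Intervals are widest at 90 min for Adcy5, Adcy8 and Chrm3, and at 3 days 36 of 37 lie within the dashed lines.

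Levels at the 2 times are set side by side as a description, since the tables were normalised separately. Prkar2b, a regulatory subunit of PKA, had 118, 121 and 115 CPM with hM3Dq and 102, 115 and 151 CPM with mCherry at 3 days. At 90 min it had 45.7, 47.2 and 51.0 CPM with hM3Dq and 45.6, 52.9 and 55.7 CPM with EGFP, so receptor and control libraries differed alike between the tables. Gna11 had 74.7 to 89.6 CPM at 3 days and 113 to 189 CPM at 90 min.

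The other genes of the pathway were 71 further subunits, kinases, cyclases, receptor kinases, anchoring proteins, diacylglycerol kinases and exchange factors, of which 69 were in the tables and 53 were tested at 90 min and 51 at 3 days. With all libraries, edgeR called none in the 4 comparisons with a control. At an unadjusted p below 0.05 there were 6 of 53 with hM3Dq (11.3%, beside 7.94% of all genes), 1 with rM3Ds (1.89%, beside 4.23%), 0 with hM4Di (beside 5.48%) and 8 of 51 with hM3Dq at 3 days (15.7%, beside 12% of all genes). DESeq2 called 0 with each receptor at 90 min, beside 1.71% of all genes with hM3Dq, 0.405% with rM3Ds and 0.206% with hM4Di, and 1 at 3 days, beside 1.22%. Without mCherry 3, edgeR called 8 of 51 at 3 days (15.7%), beside 9.72% of all genes: Dgkh, Trio, Akap8, Dgkq, Ric8b, Grk6 and Gpsm1 were lower with hM3Dq and Pkia was higher. Without rM3Ds 1, it called the diacylglycerol kinase gene Dgkg with rM3Ds (adjusted p = 0.00734), beside 0.831% of all genes. Dgkg had 0.285, 2.44 and 2.30 CPM with rM3Ds and 0.142, 0.0572 and 0.173 CPM with EGFP, the high values being rM3Ds 2 and 3, and it did not pass the filter on low counts with all libraries in the fit. The gamma subunit gene Gng4 had 2.17, 1.39 and 1.37 CPM with hM3Dq and 1.03, 1.61 and 1.81 CPM with rM3Ds, against 0.426, 0.629 and 0.749 CPM with EGFP. Every hM3Dq and rM3Ds library lay above every EGFP library (log2 fold change 1.45 ± 0.35, adjusted p = 0.130 with hM3Dq; 1.30 ± 0.35, adjusted p = 0.604 with rM3Ds, or 0.56 in rM3Ds 1 against EGFP 2 and 3). Gna14, a Gq-class subunit, had 2.17, 2.18 and 2.95 CPM with hM3Dq and 22.8, 3.66 and 3.63 CPM in EGFP libraries (-2.04 ± 0.72, adjusted p = 0.445), the high value being EGFP 1, and -0.58 without it. Gna15, another Gq-class subunit, had 0.456, 0.333 and 0.374 CPM with rM3Ds and 0.899, 0.515 and 0.519 CPM with EGFP (-0.73 ± 0.37, adjusted p = 1.00), and the log2 fold change was -0.40 without EGFP 1. With hM4Di, Pkia, which encodes a PKA inhibitor, gave -0.42 ± 0.20, and the muscarinic receptor gene Chrm1 gave -1.98 ± 0.95 (adjusted p = 0.833 each). Without EGFP 1, Pkia gave -0.10. Chrm1 had 1.90, 1.82 and 2.11 CPM with hM4Di and 19.3, 2.23 and 1.44 CPM with EGFP, and its difference changed sign to 0.093 without EGFP 1. At 3 days the diacylglycerol kinase gene Dgkh had 9.94, 9.04 and 10.4 CPM with hM3Dq, against 14.6, 15.9 and 21.4 CPM with mCherry, without overlap (-0.82 ± 0.16, edgeR adjusted p = 0.228), and was the 1 pathway gene that DESeq2 called there (adjusted p = 0.0076). Without mCherry 3, edgeR called it too (-0.63, adjusted p = 0.00288). Gnal, a Gs-class subunit, at 3 days had 2.97, 2.82 and 2.55 CPM with hM3Dq, against 4.07, 4.26 and 4.37 CPM with mCherry (-0.61 ± 0.15, adjusted p = 0.252).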

How the data were processed

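Poly-A RNA of 18 libraries was sequenced. The authors deposited estimated counts per Entrez gene, not normalised, in a table for 90 min and a table for 3 days. Salmon 1.8.0, fastp 0.23.4 and mm39 are named, with no role or order, per the submitters' processing notes. Annotation, strand and how transcripts were summed are not given in the sources used here, so near-identical copies and antisense genes are uncertain. Values that were not whole (55.9% in the 90-min table, 30.5% in the 3-day table) were rounded. Symbols matched 21978 of 22078 identifiers (99.55%).

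edgeR 4.0.16 (R 4.3.3) quasi-likelihood tests with TMM scaling and the default filter on low counts were fitted over the 12 libraries at 90 min, the 6 at 3 days, and the 12 of hM3Dq and its controls for the difference between times. The call threshold was an adjusted p of 0.05 (Benjamini-Hochberg, every gene tested). CPM are TMM-normalised. Lengths are medians over GENCODE M21 (GRCm38, basic set) coding transcripts, and coding length is the longest coding sequence; the files use mm39, so no gene coordinates are given beyond RefSeq promoter windows of GRCm38.p6. DESeq2 1.42.0, RLE scaling, no filter, a replicate block, fits of the 2 groups alone, leaving out libraries, and other lengths were the alternatives; the longest transcript was chosen after seeing the data. The fit was tested on simulated data.

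Same-numbered libraries were compared by correlating their deviations, that is log2 CPM with the group mean of each gene subtracted. These are not correlations of the levels themselves, and they come from the data and not from the labels. They were 0.133, 0.162 and 0.123 for hM3Dq and EGFP. For hM4Di and EGFP they were 0.373, 0.098 and 0.305. Libraries with different numbers were not compared, so whether the numbers mark shared cultures was not tested. The block moved the calls over all genes for hM3Dq against EGFP to 66, against 107 without it. The genes described, the lists and the tests were chosen with earlier results of these data known. Named genes were the first member of each family per length, Chrm3, and in each comparison with a control the 3 members and 2 pathway genes with the smallest p. Levels at 3 days and other members are named beside these.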

Additional observations from a re-analysis of the deposited data

Results flagged for a closer look

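The effect of hM3Dq on Fos, the immediate-early gene used to check the stimulation, differed between the times by the interaction test (difference of log2 fold changes, 3 days minus 90 min, -2.47 ± 0.21, SE; edgeR adjusted p = 0.000117). At 90 min Fos had 53.3, 56.0 and 52.7 CPM with hM3Dq, against 10.0, 14.9 and 15.3 CPM with EGFP. At 3 days it had 10.2, 11.3 and 10.5 CPM with hM3Dq, against 14.8, 16.3 and 13.1 CPM with mCherry. No member met the same test.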

How the results depend on the processing

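The count of members called stayed at 0 under RLE scaling, no filter, DESeq2 and the replicate block in each comparison, and with the 2 groups alone in the 6 pairwise comparisons at 90 min. Without the 3 libraries that stand apart it became 1 in the joint test of the receptors; that setting leaves 1 library with rM3Ds. Leaving out 1 library gave 0 to 1 members for rM3Ds against EGFP, the joint test and hM3Dq at 3 days, and 0 to 2 for hM3Dq against rM3Ds and for rM3Ds against hM4Di.

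Counts over all genes moved more. With DESeq2 they were 232 for hM3Dq, 55 for rM3Ds and 28 for hM4Di against EGFP, 463 for hM3Dq against rM3Ds, 424 for hM3Dq against hM4Di, 205 for rM3Ds against hM4Di, 656 in the joint test, 156 for hM3Dq against mCherry and 202 for the time difference. With the replicate block they were 66, 4, 53, 61, 0 and 70 for hM3Dq and rM3Ds against EGFP, hM3Dq against rM3Ds, hM3Dq against hM4Di, rM3Ds against hM4Di and the joint test. Correlations between the deviations of same-numbered libraries from their group means were positive in hM3Dq against EGFP, in hM4Di against EGFP and in hM3Dq against mCherry. They were negative in each comparison with rM3Ds. Whether the numbers mark pairs was not tested. The block changed no call of a member. Without the 3 libraries the counts were 0 for rM3Ds against EGFP, 25 for hM3Dq against rM3Ds, 300 for hM3Dq against hM4Di, 0 for rM3Ds against hM4Di and 170 for the difference between times. With the 2 groups alone they were 0 for rM3Ds against EGFP, 138 for hM3Dq against rM3Ds and 0 for rM3Ds against hM4Di. With no filter 1 gene was called at 3 days.

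Leaving out 1 library gave 50 to 103 calls over all genes for hM3Dq against EGFP, 2 to 115 for rM3Ds against EGFP, 28 to 590 for hM3Dq against rM3Ds, 38 to 106 for hM3Dq against hM4Di, 0 to 392 for rM3Ds against hM4Di, 33 to 410 in the joint test, 0 to 1257 for hM3Dq against mCherry and 28 to 170 for the time difference.

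The sign turned, among others, for Gnas with rM3Ds (0.039 without the 3 libraries) and for Chrm1 with hM4Di (0.093 without EGFP 1 and 0.064 without the 3 libraries). It also turned for Fos with hM4Di (-0.020 without the 3 libraries) and for Nr4a1 with hM4Di (-0.0036 without EGFP 3). Chrm1 kept its sign without EGFP 3 (-2.47), as did Nr4a1 without EGFP 1 (0.32). The sign changes of Adcy5 and Adcy8 with rM3Ds and of Plcb1, Gna11, Plcb4 and Prkca with hM3Dq are given above. The causes were not tested. With no division by length, 6 of 10 families kept the same first gene. Depth limits Adcy4 and Rapgef4, and with 3 libraries a group a change under 2-fold was often not detectable at 90 min.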
